A study of Mus musculus with 10 samples.

Results

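The genes described here encode the motor proteins that carry cargo along microtubules and their partner subunits: the kinesins (Kif), the kinesin light chains (Klc), cytoplasmic dynein (Dync and Dynl) and its cofactor dynactin (Dctn). Members were taken by symbol from the deposited tables, as every gene whose name follows the Kif, Klc, Dync, Dynl or Dctn pattern, a rule that uses no measured value. This gave 57 of the 51912 genes in the count files. The pattern also took in Kif1bp, a kinesin binding protein that is not itself a motor, and the pseudogene Dynlt1-ps1. Another 10 genes of the same naming pattern stood only in the reference annotation: 6 of them had 0 counts (Kif12, Kif16bos, Kif18b, Kif2b, Kif2c and Klc3), and Kif14, Kif7, Kif26a and Kif19a had 9, 8, 6 and 1 counts over the 10 libraries.

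The RNA came from motor neurons of the mouse lumbar spinal cord, cut out by laser from frozen sections of 12 µm. HSA-NRTN mice make neurturin, a GDNF-type growth factor, from a transgene under the human skeletal actin promoter, which is active in muscle fibres; their wild-type littermates lack it. Each genotype had 5 mice, 3 females and 2 males, and each library is a pool of about 50 cells from 1 mouse. Only cells with a visible nucleolus and an area above 200 square micrometres were collected, so small motor neurons are under-represented. The labels used here give no ages.

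A motor neuron must supply an axon that reaches from the spinal cord to the muscle. Kinesins mostly walk towards the growing end of microtubules and carry vesicles, mitochondria and RNA outwards, while cytoplasmic dynein walks the other way and returns endosomes, growth factor signals and worn organelles to the cell body. Dynein moves far only together with dynactin and a cargo adaptor, and mutations in KIF5A, DYNC1H1 and DCTN1 are known causes of human motor neuron or axon disease.

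Gene counts per library ran from 1875971 to 6641695, with 14090 to 19675 genes detected, and the motor genes made up 1.17% to 1.44% of gene counts. Chat, the acetylcholine-synthesising enzyme and 1 of 13 motor neuron markers listed, was found in all 10 libraries at 70.7 to 151 CPM (counts scaled to equal library size). The 13 markers summed to 21572 to 42067 CPM in HSA-NRTN and 33297 to 48882 CPM in wild-type libraries. In the fit described below 8 of them were higher and 5 lower in HSA-NRTN. The 10 interneuron markers summed to 46.9 to 333 CPM in HSA-NRTN and 25.3 to 376 CPM in wild-type libraries. Libraries that stood apart were HSA-NRTN 2 and wild-type 1. HSA-NRTN 2 had the lowest depth, 11.9% of counts from mitochondrial genes, and the highest summed level of 11 oligodendrocyte markers (1539 CPM, with 232 to 748 CPM in the rest) and of 10 astrocyte markers (803 CPM, with 50.8 to 313 CPM in the rest). Wild-type 1 had 12.9% mitochondrial counts and the fewest genes detected. In pooled cells, fewer cells of a type and less RNA per cell cannot be told apart.

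Of the 57 genes, 24 had a mean of at least 100 CPM, 10 had 10 to 100 CPM and 23 lay under 10 CPM, and 37 had a count in every library. To compare levels between genes, CPM were divided by the length of each gene's merged exons in kilobases. On this scale the 5 highest genes were Dynlrb1 (645 ± 244.4 CPM per kilobase, SD, n = 10), Klc1 (409 ± 108), Dynlt3 (401 ± 84.3), Dctn3 (214 ± 53.1) and Dync1i1 (205 ± 52.1). Kif5c (157 ± 15.04), Dynll2 (133 ± 78.05), Kif21a (130 ± 18.96), Dynll1 (99.8 ± 28.7) and Kif1b (93.9 ± 30.03) followed. Neighbours in this order often changed places: Dynlrb1 lay above Klc1 in 7 of 10 libraries, and Klc1 above Dynlt3 in 5 of 10. Dynlrb1 lay above Dctn3 in all 10. This order also depended on the length correction. With no length correction the highest genes were Klc1, Kif1b and Kif5c, and Dynlrb1 stood at rank 7. Dynlrb1 then lay above Klc1 and above Dynlt3 in 0 of 10 libraries, and Klc1 above Dynlt3 in 10 of 10. Of the 20 highest genes per kilobase, 16 were also among the 20 highest with no length correction.

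**Figure D1:**
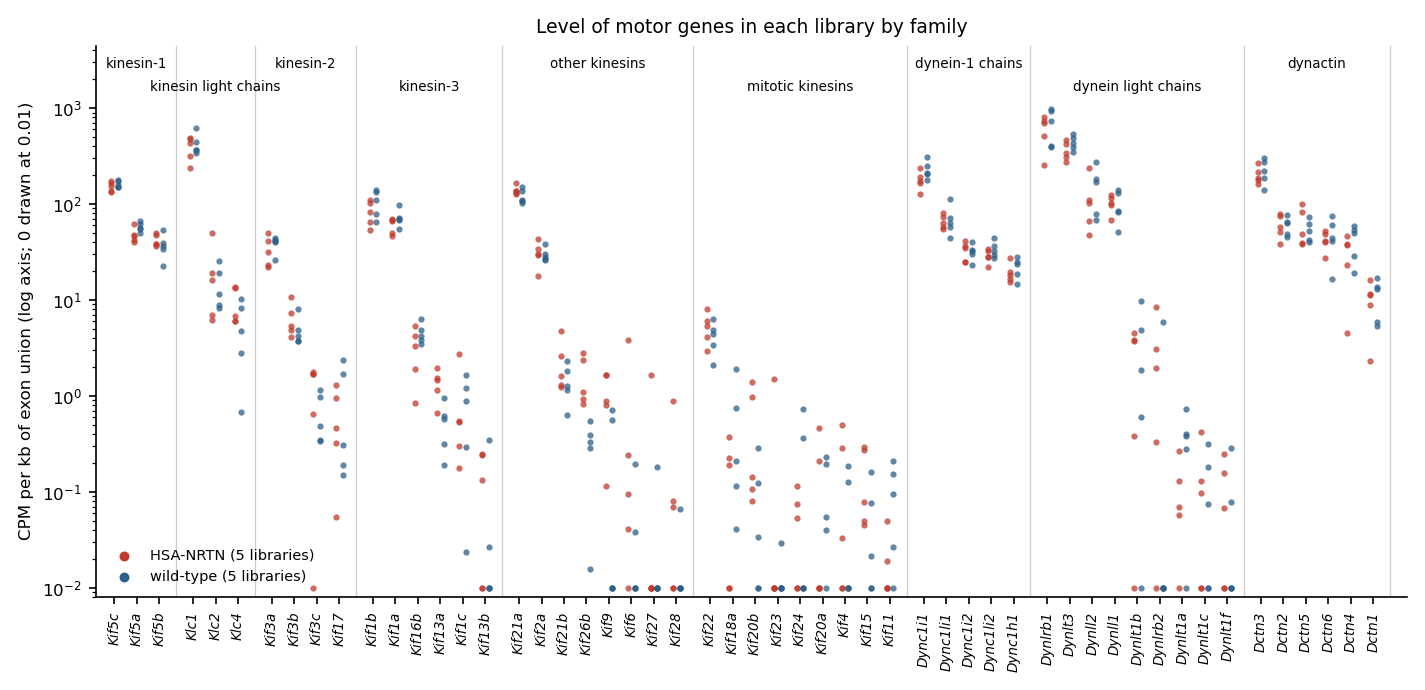
Level of each motor gene in CPM per kilobase of merged exons (log axis), by family, with 1 point per library for 5 HSA-NRTN (red) and 5 wild-type (blue) libraries; values of 0 are drawn at 0.01 and families of 1 or 2 genes are left out. The points of the highest genes stay within a few-fold of each other, while most mitotic kinesins scatter down to 0.

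Kinesin-1, the main motor of fast outward transport, is built from heavy chains, which hold the motor domain, and light chains, which bind cargo. Kif5c was the leading heavy chain gene. Its level was 981, 963, 1241, 1176 and 1101 CPM in HSA-NRTN libraries 1 to 5 and 1118, 1079.8, 1275, 1234 and 1066 CPM in wild-type libraries 1 to 5. The 10 libraries were close together and the groups overlapped throughout. Per kilobase, Kif5c made up 62.9% ± 3.80 (SD, n = 10) of the heavy chain total, with a range of 57.6% to 68.7%, Kif5a 21.2% ± 3.55 and Kif5b, the form found in all tissues, 15.9% ± 3.69. Kif5c exceeded Kif5a in all 10 libraries, by 2.23 to 4.29 times, whereas Kif5a exceeded Kif5b in 8 of 10, or in 6 of 10 when the longest coding transcript gave the length.

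Among the light chains Klc1 was nearly alone, with 94.6% ± 2.30 of the family total per kilobase. Klc1 CPM were 1767, 1983, 1278, 963 and 1928 in HSA-NRTN libraries 1 to 5 and 1802, 1497, 1490.4, 1384 and 2535 in wild-type libraries 1 to 5. The lowest and the highest library, HSA-NRTN 4 and wild-type 5, differed by 2.63 times. Klc2 held 3.66% of the family per kilobase and Klc4 held 1.75%. The Klc2 share was 9.07% in HSA-NRTN 2, where Klc2 reached 206 CPM and the other 9 libraries had 25.2 to 104 CPM.

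Kinesin-3 motors carry the precursors of synaptic vesicles and dense core vesicles. Kif1b and Kif1a supplied nearly all of this family, at 55.8% ± 4.66 and 40.6% ± 4.63 per kilobase, and Kif1b was the higher of the pair in all 10 libraries by 1.06 to 1.99 times. Kif1b, a gene whose splice forms carry mitochondria or vesicles, had 1443, 1824, 1136, 937 and 1944 CPM in HSA-NRTN libraries and 2369.7, 1935, 1371, 1132 and 2449 CPM in wild-type libraries. Its 3 lowest libraries were HSA-NRTN 4, wild-type 4 and HSA-NRTN 3. Kif16b, a motor of early endosomes, averaged 3.83 CPM per kilobase, and Kif13a, which moves recycling endosomes, 0.939. Kif13b, with 56 counts in all, was too low to test.

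In kinesin-2, the motor of cilia and of a part of axonal transport, Kif3a supplied 82.4% ± 6.503 of the family per kilobase and Kif3b, its usual partner in the same complex, 13.8% ± 6.69. Without a length correction the Kif3a share was 74.9%. Kif3c and Kif17 stayed at 0.908 and 0.782 CPM per kilobase. Of the Kif3c sequence 60.4% of 50-base words were unique to the gene, the rest being shared with antisense neighbours, and the protocol does not mark strand.

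Outside these families Kif21a stood out, a kinesin-4 motor that slows the growth of microtubule ends, at 130 ± 18.96 CPM per kilobase. It exceeded its paralog Kif21b by 34.6 to 216 times. Kif2a, which takes microtubules apart at their ends, averaged 30.4 CPM per kilobase. Of its 50-base words 80.3% were unique, the others being mainly shared with the opposite-strand neighbour Dimt1.

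Kinesins that work in cell division or at centrioles were scarce, and 1 of the 9 in the tables (Kif22) was abundant enough for the tests. Kif22, which binds chromosomes, had 10.3 to 39.1 CPM. The other 8 (Kif11, Kif15, Kif18a, Kif20a, Kif20b, Kif23, Kif24 and Kif4) had 21 to 172 counts over all 10 libraries. The 10 general markers of dividing cells summed to 9.32 to 41.8 CPM in every library; Birc5, Ccnb1 and Cdk1 passed the filter on low counts, while Mki67 and Aurkb had 0 counts throughout. Several low members came mostly from 1 library: HSA-NRTN 2 held 22 of the 23 counts of Kif23, 16 of the 20 counts of Kif27 and 42 of the 61 counts of Kif6, and HSA-NRTN 3 held 17 of the 21 counts of Kif28. Kif27 and Kif6 are known from ciliated cells. The sum of 10 markers of ciliated ependymal cells was highest in the same library, HSA-NRTN 2, at 28.6 CPM, where the other 9 had 3.44 to 18.1 CPM. Foxj1 and Cfap126 of that list passed the filter, while Rarres2, Tekt1, Tmem212 and Ccdc153 were at 0 everywhere; the part of such cells in the Kif27 and Kif6 counts was not tested. Of the 15 motor genes with at most 100 counts, HSA-NRTN 2 held over 50% of the counts of 3 and HSA-NRTN 3 of 1, where the share of all such genes was 8.12% in HSA-NRTN 2 and 2.83% in HSA-NRTN 3.

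Cytoplasmic dynein-1 is a complex of a heavy chain with the motor domain, intermediate chains that bind dynactin, light intermediate chains that bind cargo adaptors, and light chains. Dync1h1, the only heavy chain gene of this complex, averaged 20.7 ± 4.85 CPM per kilobase (SD, n = 10). It had 309.6, 286, 242.5, 426 and 258.7 CPM in HSA-NRTN libraries and 231, 291, 392.2, 367 and 437 CPM in wild-type libraries, with the groups overlapping. Dync1i1, the intermediate chain gene known as neuronal, lay above Dync1h1 per kilobase in all 10 libraries by 4.63 to 17.0 times. With no length correction it was also above in all 10, but the gap was smaller, with means of 731 and 324 CPM.

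Dync1i1 made up 86.1% ± 2.46 of the intermediate chain total per kilobase and Dync1i2, the ubiquitous gene, 13.9%. The share of Dync1i1 was 84.5% ± 1.63 in HSA-NRTN libraries and 87.8% ± 2.06 in wild-type ones (SD, n = 5 each), with ranges that overlapped. By the length of the longest coding transcript its share over all libraries was 72.3%. Of the light intermediate chains, Dync1li1 held 67.6% ± 8.12 and was above Dync1li2 in all 10 libraries, though by as little as 1.01 times in wild-type 5. Without a length correction Dync1li1 held 57.6% and was the higher one in 9 of 10.

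The dynein light chains fall into the LC8 (Dynll1 and Dynll2), roadblock (Dynlrb1 and Dynlrb2) and Tctex (Dynlt) families. The last 2 families were each supplied by 1 gene: Dynlrb1 held 99.7% of the roadblock total per kilobase and Dynlt3 held 99.2% of the Tctex total. The low level of the Dynlt1 genes needs their sequence beside it. Dynlt1a, Dynlt1b, Dynlt1c and Dynlt1f lie on chromosome 17 and the pseudogene Dynlt1-ps1 on chromosome 6 (GRCm38), and the 342-base coding sequences of Dynlt1a, Dynlt1c and Dynlt1f and the pseudogene sequence were identical. Dynlt1b differed from them at 1 base, which stands in capitals in the first 60 coding bases below, as GENCODE M21 gives them.
Dynlt1a: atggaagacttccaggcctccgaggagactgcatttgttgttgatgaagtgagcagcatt
Dynlt1b: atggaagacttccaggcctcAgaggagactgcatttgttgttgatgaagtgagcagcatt

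A read from this stretch of Dynlt1a reads the same as one from Dynlt1c, Dynlt1f or Dynlt1-ps1, and the deposited files tally reads aligned in more than 1 place apart from the gene counts. Dynlt1-ps1 nevertheless had 231 counts over the 10 libraries, Dynlt1b 113, and Dynlt1a, Dynlt1c and Dynlt1f 50, 25 and 15. Of all 50-base words of the annotated transcripts, 29.5% were unique to Dynlt1a, 16.8% to Dynlt1b, 11.1% to Dynlt1c, 11.4% to Dynlt1f and 0% to Dynlt1-ps1, while 42 of the 57 members had at least 95% unique words. The summed expression of the Dynlt1 copies is therefore uncertain, and the share of Dynlt3 above is that among reads counted to 1 gene.

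The LC8 pair can be told apart by reads, as Dynll1 and Dynll2 were 81.1% identical over 270 coding bases. The stretch from coding base 25 to 84 shows how the differences are scattered; capitals mark the 14 bases of Dynll2 that differ from Dynll1.
Dynll1: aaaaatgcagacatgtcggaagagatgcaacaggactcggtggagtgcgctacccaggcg
Dynll2: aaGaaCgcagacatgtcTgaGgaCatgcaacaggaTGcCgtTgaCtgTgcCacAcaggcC

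These 2 genes, chromosome 5 for Dynll1 and chromosome 11 for Dynll2, divided the LC8 total differently from library to library. Dynll2 had 302, 647, 181, 129.97 and 278 CPM in HSA-NRTN libraries 1 to 5 and 749, 498, 216, 184 and 465 CPM in wild-type libraries 1 to 5. Its share of the LC8 total per kilobase ran from 29.0% to 77.5%, and it was the higher of the pair in 5 of 10 libraries. The 4 highest Dynll2 libraries, wild-type 1, HSA-NRTN 2, wild-type 2 and wild-type 5, were also the 4 with the highest mitochondrial share of counts (12.9%, 11.9%, 8.62% and 8.12%); the part of that difference in the Dynll2 level was not tested.

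**Figure D2:**
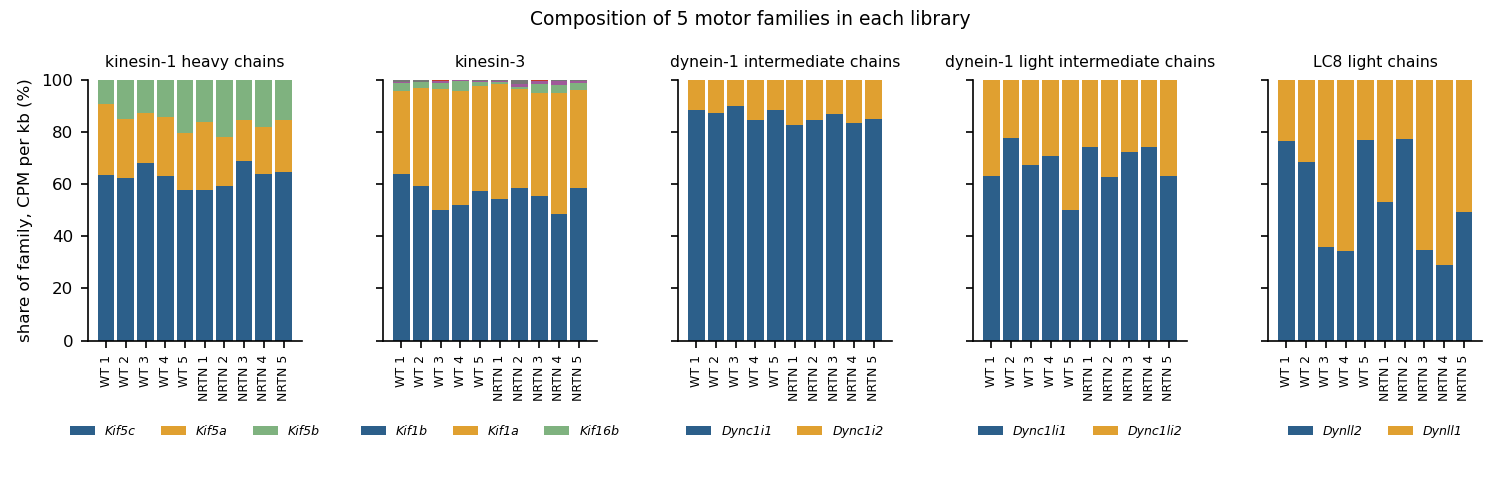
Share of each gene in its family (percent of summed CPM per kilobase of merged exons) in each of 5 wild-type (WT) and 5 HSA-NRTN (NRTN) libraries; the kinesin-3 panel also holds Kif1c, Kif13a and Kif13b as thin unlabelled bands. Kif5c and Dync1i1 lead their families in all 10 libraries, while Dynll2 ranges from 29.0% to 77.5%.

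Dynactin joins dynein to cargo. Its gene for the arm that grips dynein and the microtubule, Dctn1, was the lowest of the 6 at 10.5 ± 4.82 CPM per kilobase (SD, n = 10). Dctn2 (60.005 ± 13.98) and Dctn3 (214 ± 53.1) encode shoulder subunits, and Dctn4 (36.0 ± 17.2), Dctn5 (57.8 ± 21.3) and Dctn6 (44.7 ± 16.1) encode the pointed-end complex that contacts cargo adaptors. Dctn3 exceeded Dctn1 in all 10 libraries by at least 13.9 times and Dctn4 exceeded Dctn1 in all 10 by 1.95 to 4.81 times. Dctn5 and Dctn6 kept no fixed order, with Dctn5 higher in 6 of 10. The order rested in part on the length used. Per kilobase of the longest coding transcript the means were 229 for Dctn3, 161 for Dctn2, 112 for Dctn4, 102 for Dctn6 and 99.9 for Dctn5. Dctn3 lay above Dctn2 in 10 of 10 libraries by merged exons, in 7 by coding transcript and in 3 with no length correction.

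Spread between libraries differed widely among the 24 motor genes with a mean of at least 100 CPM. The standard deviation of log2(CPM + 1) over the 10 libraries had a median of 0.353 for these 24 and of 0.410 for all 1970 genes at this level. Kif5c had the smallest value of the 24, 0.139, and 0.254% of all genes at this level had a lower one. Kif21a (0.212) and Kif5a (0.246) came next. The largest were Dctn4 (1.09, above 98.2% of genes), Dynll2 (0.853, above 94.9%) and Dynlrb1 (0.632, above 84.6%).

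Dctn4 had 269.6, 52.4, 537, 429 and 443 CPM in HSA-NRTN libraries and 221, 582, 618, 689.8 and 331 CPM in wild-type libraries. It was lowest in HSA-NRTN 2, followed by wild-type 1. Dynlrb1 showed its lowest levels in the same libraries and wild-type 5, at 256, 398 and 406 CPM, while the other 7 had 516 to 991 CPM, and Dctn1 also had its 3 lowest values there, at 15.1, 34.7 and 38.7 CPM. Dynll2 was high in exactly these libraries and in wild-type 2.

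**Figure D3:**
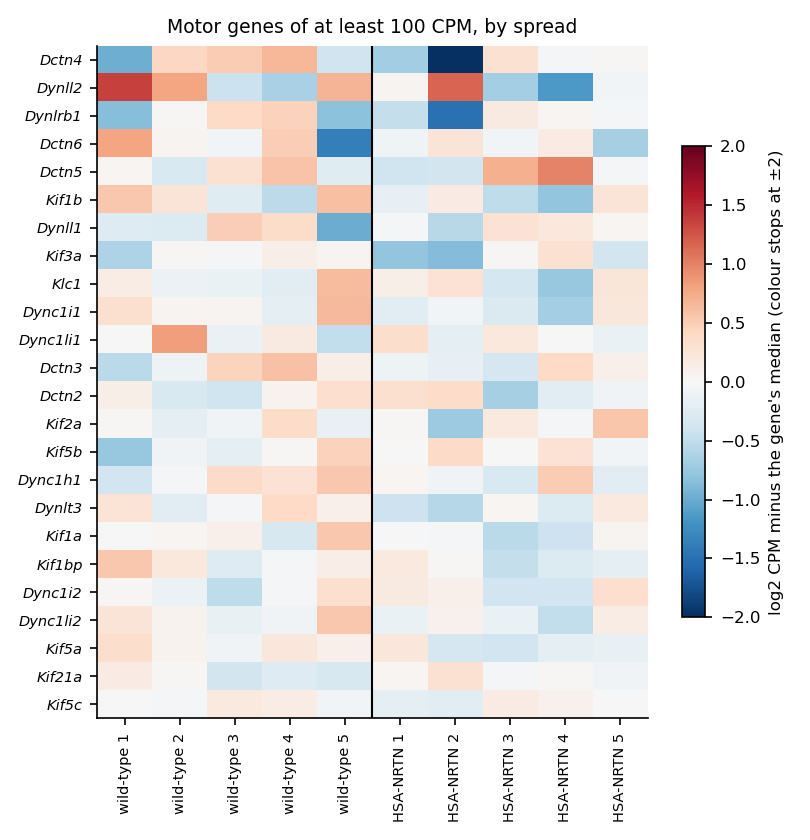
Level of each motor gene with a mean of at least 100 CPM in each library, as log2 CPM minus the gene's own median over the 10 libraries (colour scale stops at ±2), ordered by spread. Dctn4 and Dynlrb1 are low and Dynll2 is high in HSA-NRTN 2 and wild-type 1, while the Kif5c row is nearly even.

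The comparison of the genotypes asks whether neurturin made by muscle goes with a change in the transport genes of the motor neurons that supply it. The clearest candidate was Kif26b, which was higher in HSA-NRTN libraries without overlap. For the main transport motors the 95% intervals of the ratio of HSA-NRTN to wild-type included 1. They were wide, such as 0.531 to 1.17 for Kif1b and 0.555 to 1.07 for Dync1i1, so a small difference was not shown either. With edgeR's quasi-likelihood test and Benjamini-Hochberg adjustment under 0.05, 0 of the 41 motor genes that passed the filter on low counts were called, where 1 of all 11630 genes (0.00860%) was. At an unadjusted p under 0.05 the test gave 2 of the 41, Kif26b and Kif13a, where 4.83% of all genes passed. The other 16 genes were too low to test. Of the 41, 18 had a higher and 23 a lower fitted level in HSA-NRTN, where 48.6% of all genes were higher, with a median log2 fold change of -0.08 for the motor genes and -0.01 for all genes.

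Other tools differed on Kif26b. DESeq2 called it alone among 50 motor genes, with an adjusted p of 0.0290 and with 0.800% of all genes called, and on the genes kept for edgeR it did so with an adjusted p of 0.0389 (0.530% of genes called). In the authors' deposited table Kif26b had a log2 fold change of 1.44, a moderated value that is not on the scale of the fitted values given here. Its adjusted p there, as the authors gave it, was 0.0368. It was the only 1 of 51 motor genes with an adjusted p there under 0.05, as were 1.05% of all genes. Limma voom called 0 of 41 motor genes (0.0258% of all genes) and gave 3 at an unadjusted p under 0.05, where 5.76% of all genes passed.

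Kif26b (ENSMUSG00000026494, chromosome 1, 178529125 to 178939200, plus strand, GRCm38) belongs to the kinesin-11 family, whose motor domain is held not to move along microtubules, and it is known from kidney development and Wnt5a signalling. Its level was 34.995, 16.2, 12.1, 13.7 and 41.4 CPM in HSA-NRTN libraries 1 to 5 and 0.230, 5.66, 7.98, 4.82 and 4.16 CPM in wild-type libraries 1 to 5. Every HSA-NRTN library lay above every wild-type library, which held for 1 of the 41 motor genes and for 1.25% of all genes in either direction. The mean was 23.7 ± 13.5 CPM in HSA-NRTN and 4.57 ± 2.82 CPM in wild-type libraries (SD, n = 5 each).

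The fitted difference of Kif26b was 5.16-fold with a 95% interval of 1.91 to 13.9. On the log2 scale this was 2.37 with a standard error of 0.67, and edgeR's quasi-likelihood test gave an unadjusted p = 0.00303 and a Benjamini-Hochberg adjusted p = 0.489. These levels rest on 30 to 168 counts in each HSA-NRTN and 1 to 34 in each wild-type library, 478 against 104 in all. In females alone the log2 difference was 2.37 and in males alone 2.38. Without wild-type 1, which had 1 count, it was 2.06, and without both libraries that stood apart it was 2.17. The animal numbers in the labels fall into 2 runs. In the first, HSA-NRTN 1 to 3 faced wild-type 1 alone, and in the second HSA-NRTN 4 and 5 lay above wild-type 2 to 5. Both HSA-NRTN males were in the first run and both wild-type males in the second. In males alone, genotype and run therefore cannot be told apart. With the run in the model the log2 difference was 3.13 and the adjusted p by edgeR 0.287.

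The median sum of endothelial and mural cell markers was also higher in HSA-NRTN, 19.0 against 10.7 CPM, with overlap. Their 10 genes, all found and 2 of them tested, summed to 16.03 to 102 CPM in HSA-NRTN and 3.75 to 27.3 CPM in wild-type libraries. The tops were HSA-NRTN 2 and wild-type 1, which stood apart. Medians were also higher for astrocyte (100 against 88.1), ependymal (14.3 against 13.4) and interneuron markers (198 against 126). They were lower for oligodendrocyte (386 against 459) and microglia markers (17.8 against 25.8). Sums of the 10 dividing cell markers also stood higher, at 23.2 to 41.8 CPM against 9.32 to 24.6 CPM. In HSA-NRTN 5 and HSA-NRTN 1, which had the highest Kif26b, the vascular sums were 16.03 and 22.5 CPM and the dividing cell sums 24.9 and 41.8 CPM. The part of either cell type in the Kif26b difference was not tested. Of the Kif26b 50-base words 94.1% were unique, the rest being shared with the antisense gene Gm16564, which had 5 counts in all.

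Kif13a (chromosome 13) had 5.34, 11.9, 9.34, 15.7 and 12.3 CPM in HSA-NRTN libraries and 4.59, 2.55, 7.74, 1.55 and 4.96 CPM in wild-type libraries. HSA-NRTN 1 lay inside the wild-type range and the other 4 above it. The log2 fold change was 1.35 (standard error 0.62), or 2.55-fold with a 95% interval of 1.02 to 6.37, and edgeR's quasi-likelihood test gave an unadjusted p = 0.0462 and a Benjamini-Hochberg adjusted p = 0.999. Kif9, known from motile cilia, had the second largest fitted difference (log2 1.97, standard error 1.19) from 102 counts in transgenic and 27 in wild-type mice, of which 3 had 0, and did not pass at an unadjusted p under 0.05. Its log2 value was 2.74 without wild-type 3, 1.65 without wild-type 5 and 3.11 with voom.

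**Figure D4:**
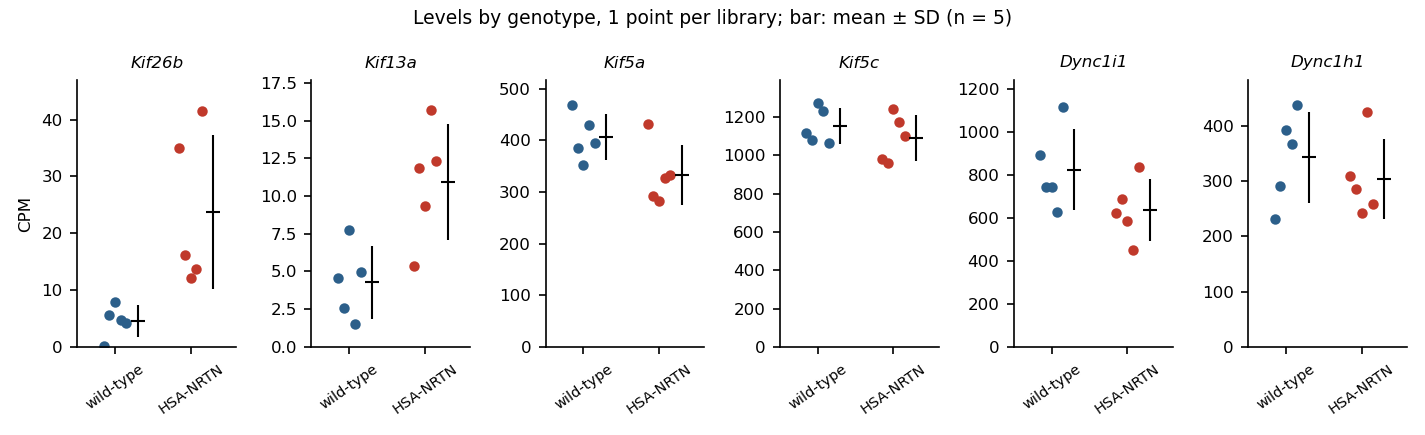
CPM of 6 motor genes in each library by genotype (blue wild-type, red HSA-NRTN), with the mean and SD (n = 5) as a bar beside the points; each axis starts at 0. Kif26b points do not overlap between the groups, Kif13a points overlap at HSA-NRTN 1, and Kif5a, Kif5c, Dync1i1 and Dync1h1 points overlap.

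In kinesin-1 the intervals of the difference were narrower for the heavy chain genes than for the light chain genes. The Kif5c ratio of HSA-NRTN to wild-type was 0.946 with a 95% interval of 0.728 to 1.23. Kif5a had 431, 293, 283, 326 and 333 CPM in HSA-NRTN and 469, 386, 352, 430.4 and 396 CPM in wild-type libraries. HSA-NRTN 1 was inside the wild-type range and the other 4 below it, and the ratio was 0.820 (95% interval 0.614 to 1.09). Kif5b had a ratio of 1.14 (0.808 to 1.602), which turned to a log2 difference of -0.037 in males alone. Klc1 had 0.909 (0.632 to 1.31), Klc2 1.34 (0.627 to 2.85) and Klc4 1.71 (0.715 to 4.10). The sign of the Klc1 and Klc2 values changed when 1 library was left out, wild-type 5 for Klc1 (log2 0.031) and HSA-NRTN 2 for Klc2 (log2 -0.28).

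The intervals of the abundant motors of the other kinesin families also included 1. The ratio was 0.787 (95% interval 0.531 to 1.17) for Kif1b, 0.831 (0.606 to 1.14) for Kif1a, 0.872 (0.586 to 1.30) for Kif3a and 1.15 (0.868 to 1.52) for Kif21a. The 5 tested genes of the remaining kinesin families, Kif2a, Kif9, Kif21a, Kif21b and Kif26b, all had positive fitted values with a median log2 fold change of 0.68, and Kif2a turned negative in 3 of the alternatives. Of these, only the Kif26b interval excludes 1.

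In dynein-1, 4 of the 5 chain genes had lower and 1 higher fitted levels in HSA-NRTN, none called. Dync1i1 had the smallest p among the abundant motors. It had 621, 689.6, 587, 449 and 839 CPM in HSA-NRTN and 893, 742, 745, 629 and 1117 CPM in wild-type libraries, with HSA-NRTN 5 inside the wild-type range and HSA-NRTN 2 above the lowest wild-type library. The ratio was 0.772 (95% interval 0.555 to 1.07), and the log2 value of -0.37 (standard error 0.22) had an unadjusted p of 0.115 by edgeR. Dync1h1 had a ratio of 0.887 (0.628 to 1.25) and Dync1i2 of 1.03 (0.736 to 1.43). Dync1li1 had 0.945 (0.652 to 1.37) and Dync1li2 0.847 (0.615 to 1.17).

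Of the 5 tested dynein light chain genes 4 were lower and 1, Dynll1, higher in the fit. The ratio was 0.726 (95% interval 0.385 to 1.37) for Dynll2, 0.871 (0.535 to 1.42) for Dynlrb1, 0.816 (0.598 to 1.11) for Dynlt3 and 1.04 (0.697 to 1.56) for Dynll1. Dynactin gave 1 positive and 5 negative values. Dctn2 was nearly the same in both genotypes at 288 ± 80.1 and 288 ± 60.8 CPM (SD, n = 5 each), a ratio of 0.9996 with a 95% interval of 0.700 to 1.43. Dctn4 had 0.71 (0.363 to 1.39), with a log2 value of -1.50 in males alone against -0.49 in all, and Dctn1 0.923 (0.485 to 1.76), and without HSA-NRTN 2 the Dctn1 value turned positive (log2 0.13). Dctn3 had 0.901 (0.627 to 1.29), Dctn5 1.14 (0.726 to 1.78) and Dctn6 0.878 (0.538 to 1.43).

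**Figure D5:**
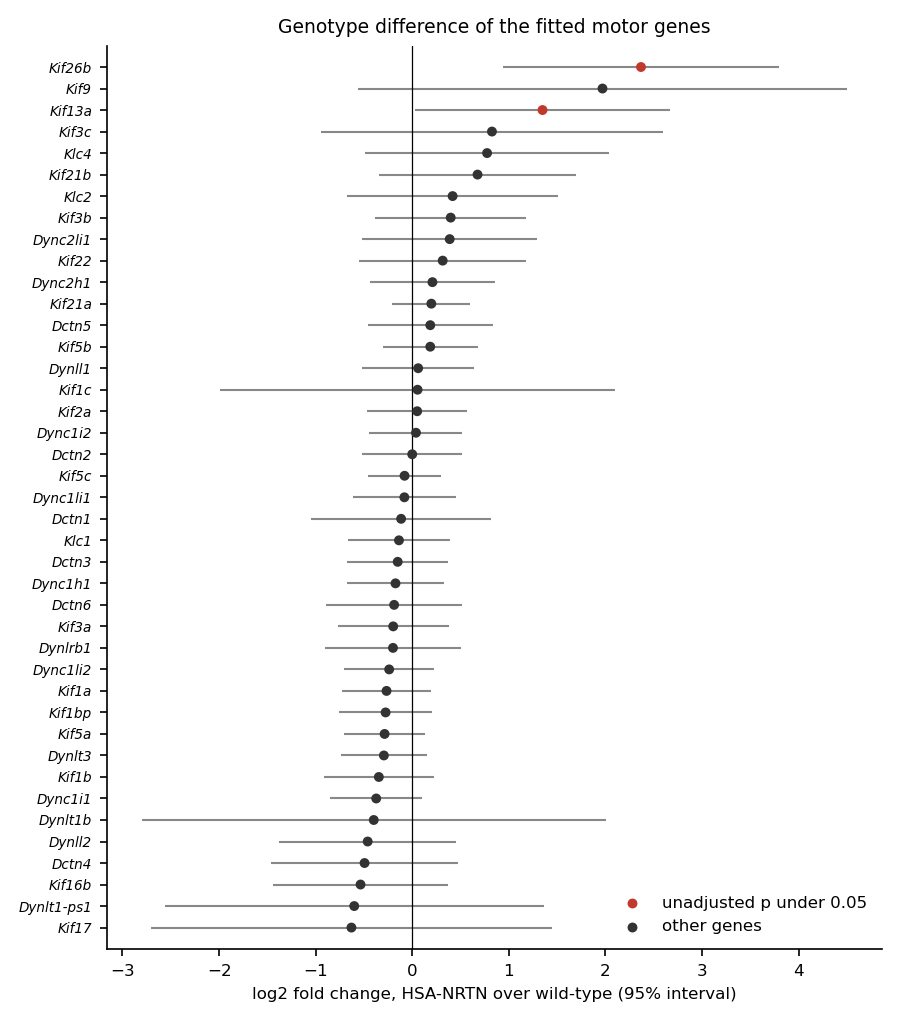
Log2 fold change of HSA-NRTN over wild-type for the 41 tested motor genes, with 95% intervals from edgeR's quasi-likelihood fit; red marks an unadjusted p under 0.05. The intervals of Kif26b and Kif13a lie above 0, and the other 39 cross it.

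Genes that work with the motors were read against the same background of all tested genes, 0.00860% called and 4.83% at an unadjusted p under 0.05. Of 52 adaptors and regulators 46 were tested, of which 16 had positive and 30 negative values, with a median log2 fold change of -0.05, and 0 were called by edgeR. At an unadjusted p under 0.05 there were 2 (4.35%), both lower: Mapk8ip3, a scaffold that links kinesin-1 and dynein to vesicles, at 82.4 ± 16.7 CPM in HSA-NRTN and 141 ± 28.9 CPM in wild-type (log2 -0.78, unadjusted p = 0.00554), and Rilpl2 (log2 -1.76, unadjusted p = 0.0257). One wild-type library, wild-type 4 at 96.2 CPM, fell inside the HSA-NRTN range of Mapk8ip3, whose top was 110.03 CPM. Of the Rilpl2 difference much lay in wild-type 1, at 66.3 CPM, where wild-type 2 to 5 had 6.74 to 10.8 CPM.

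Of 54 genes for the microtubule track 49 were tested, 22 positive and 27 negative with a median of -0.02, 0 called and 2 (4.08%) at an unadjusted p under 0.05 by edgeR. Those were Katna1, a subunit of the severing enzyme katanin (log2 -1.21, unadjusted p = 0.0233), and Agtpbp1, which trims glutamate chains from tubulin (log2 -0.50, unadjusted p = 0.0323). Of 26 genes of intraflagellar transport, the ciliary task of kinesin-2 and dynein-2, 25 were tested, 14 positive and 11 negative with a median of 0.03, 0 called and 3 (12%) at an unadjusted p under 0.05: Ift172 (1.10, unadjusted p = 0.0283), Ift80 (-0.62, unadjusted p = 0.0326) and Ttc30b (1.66, unadjusted p = 0.0483). The dynein-2 genes themselves had log2 values of 0.21 for Dync2h1 and 0.39 for Dync2li1, with standard errors of 0.30 and 0.43.

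Sex was compared with genotype in the model, as male minus female, with 4 male and 6 female libraries. The edgeR test called 0 of the 41 motor genes, where 1 of 11630 genes (0.00860%) was called, and 6 had an unadjusted p under 0.05, where 11.2% of all genes did. DESeq2 called 1 of 44 (1.50% of all genes), with 10 at an unadjusted p under 0.05 (16.3% of all genes). The called gene was Kif18a, for which wild-type 1, a female, held 81 of 172 counts; limma voom called 0 (0.00% of all genes) and gave 8 at an unadjusted p under 0.05 (10.4% of all genes). Dctn5, the motor gene of smallest p by sex, had 100.2, 103, 108 and 112 CPM in the males and 129 to 265 CPM in the females. The share of all genes that part the sexes in this way was not counted, so nothing is read from this parting. The Dctn5 log2 difference was -0.79 (standard error 0.25), with an unadjusted p = 0.00619 and an adjusted p = 0.368 by edgeR. The males had mitochondrial shares of 6.97% to 11.9% and the females 4.15% to 6.24%, apart from wild-type 1 at 12.9%. The part of this share in the sex differences was not tested.

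The next 3 by p were Dynll1 (log2 -0.64, standard error 0.23, unadjusted p = 0.0150), Klc2 (1.13, standard error 0.44, unadjusted p = 0.0229) and Dynlt1b (-3.03, standard error 1.20, unadjusted p = 0.0240). For Dynll1 the males had 197 to 378 CPM and the females 328 to 549 CPM. The Klc2 value includes the male library HSA-NRTN 2, and the Dynlt1b reads are uncertain for the reason given above. The Dynlt1b value was -4.81 without wild-type 2, and its unadjusted p by edgeR rose to 0.0593 to 0.0769 on leaving out HSA-NRTN 1, HSA-NRTN 2, wild-type 3 or wild-type 5. Without wild-type 1 edgeR called Dynll2 as higher in males (log2 1.24, Benjamini-Hochberg adjusted p = 0.0393), 1 of 41 motor genes. That fit called 176 of all 12054 genes. In it the males had mitochondrial shares of 6.97% to 11.9% and the females 4.15% to 6.24%, so sex and this share cannot be told apart. With wild-type 1 the Dynll2 value was 0.82 and the unadjusted p by edgeR 0.0563.

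A genotype difference that depends on sex was tested as an interaction, with 2 to 3 libraries in each cell of the design. The HSA-NRTN males were all in the first run of animal numbers and the wild-type males all in the second. A genotype difference among males therefore cannot be told apart from run, which was not in this model. The test by edgeR called 0 of 41 motor genes and 0 of all genes (0.00%), and 1 motor gene, Kif9, had an unadjusted p under 0.05, where 5.14% of all genes did. DESeq2 called 0 of 51 motor genes (0.101% of all genes) with 3 at an unadjusted p under 0.05 (7.46% of all genes). Limma voom called 0 of 41 (0.00% of all genes) with 2 at an unadjusted p under 0.05 (4.02% of all genes). Kif9 had 7.12 and 3.78 CPM in the 2 HSA-NRTN males and 0 in both wild-type males, against 3.48, 7.13 and 0.493 CPM in HSA-NRTN females and 0, 3.05 and 2.41 CPM in wild-type females. These values rest on at most 50 counts in a library. Kif3a followed at a log2 interaction of -1.02 (standard error 0.48, unadjusted p = 0.0505 by edgeR). HSA-NRTN males had 83.3 and 79.4 CPM and wild-type males 147 and 151 CPM, while the females of both genotypes overlapped. Among the females of the first run, wild-type 1 had 94.1 CPM of Kif3a and HSA-NRTN 3 had 147 CPM. The part of run in the Kif3a value was not tested. Kif16b (-1.37, unadjusted p = 0.0727) and Dctn6 (1.19, unadjusted p = 0.0740) came next. The Kif16b value was -2.04 without HSA-NRTN 2, and the Dctn6 value 2.05 without wild-type 2 and 0.586 without wild-type 5.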

How the data were processed

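Each library was made with SMART-seq2 and Tn5 from 1 laser-captured pool, per the labels' protocols; this kit has no molecular identifiers and does not mark strand. Per the submitters' processing notes, STAR 2.5.0a aligned the reads to GRCm38.p6 and HTSeq counted them per gene. Which annotation release and which counting options were used is not given in the sources used here. Values in the count files are raw counts as deposited. The deposited expression table, a signal of counts divided by DESeq2 size factors, gave symbols and an alternative scaling. A second deposited table holds log2 fold changes by the authors, a test statistic as a score, and p-values; only the values named as the authors' come from it.

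Counts were analysed in R 4.3.3. Spike-ins and 5 tally entries that name no gene were left out of library sizes and tests. Genes were kept by filterByExpr (11630), scaled by TMM and tested in edgeR 4.0.16 by its quasi-likelihood F test, for genotype without covariates, for sex with genotype, and for their interaction; p-values were adjusted by Benjamini-Hochberg over all genes and called under 0.05. DESeq2 1.42.0 and voom in limma 3.58.1 were alternatives. CPM use TMM-scaled library sizes. Lengths and transcript sequences come from GENCODE M21, whose identifiers matched all 57 members. The fit was also run on counts simulated from its own model, which cannot show whether that model suits these data. Genotype and sex come from the labels, and replicate numbers only follow record order. The p-values set a difference between groups against the spread between libraries. Each library is 1 pool from 1 animal, so differences between animals, pools and library preparations cannot be told apart.

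The motor genes as a subject, and so their members, as well as the gene lists and the rule for named genes, were chosen with earlier results of these data known; within the subject, members follow from the symbol alone. That rule named members called or with an unadjusted p under 0.05 by genotype, members without overlap, the 20 highest per kilobase, all of kinesin-1, dynein-1 and dynactin, and the 4 of smallest p by sex and interaction; other members were named after their values were seen. Depth of 1875971 to 6641695 counts from about 50 cells leaves genes with few counts to chance sampling of molecules.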

Additional observations from a re-analysis of the deposited data

Results flagged for a closer look

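In 3 of the 64 groups of 5 libraries examined (32 genes in each genotype), 1 library stood far from the other 4; chance flags about 1 in 20 groups. Kif3a in wild-type 1 had 94.1 CPM, where wild-type 2 to 5 had 143 to 157 CPM. Kif3b in wild-type 4 had 45.6 CPM, where the other 4 of its group had 20.96 to 27.2 CPM. Kif21a in HSA-NRTN 2 had 1062 CPM, where HSA-NRTN 1, 3, 4 and 5 had 823 to 883 CPM. Wild-type 1 and HSA-NRTN 2 are the libraries with the highest mitochondrial shares (12.9% and 11.9%); wild-type 4 had 5.34%.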

How the results depend on the processing

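Over 24 alternatives, 47 of 767 genotype values of 32 motor genes took the other sign, and 16 of the 32 never did, Kif26b and Kif13a among them. The number called by genotype was 1 (Kif26b) with DESeq2 and with DESeq2 on edgeR's genes and 0 in every other alternative, leave-one-out fits included; by sex it was 1 with DESeq2 (Kif18a) and 0 to 1 on leaving out a library (Dynll2 without wild-type 1); by interaction it was 0 throughout. Over all genes the number called ran from 0 to 126 by genotype, the most with DESeq2, of 15741 genes. By sex it ran from 0 to 315 and by interaction from 0 to 35, the most in both with all 26070 genes of at least 1 count. Adjusted p of Kif26b ran from 0.0290 to 0.9999.

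Log2 values of the other sign were as follows. In males alone, where genotype and run of animal numbers cannot be told apart: Kif5b -0.037, Kif2a -0.14, Dctn2 0.28, Dctn5 -0.13, Dctn6 0.58. In females alone: Klc2 -0.15, Kif3a 0.18, Dync1li1 0.037, Dynll1 -0.028, Dctn1 0.066. With the run of animal numbers: Kif3a 0.028, Dync1h1 0.020, Dynlrb1 0.083, Dctn1 0.25, Dctn3 0.10. With genes detected: Klc1 0.055, Kif2a -0.0095, Dynll1 -0.17, Dynll2 0.11, Dctn2 0.19, Dctn5 -0.27. Without both libraries that stood apart: Kif5b -0.017, Klc2 -0.16. With voom: Klc2 -0.11. For Dctn2: 0.0052 with RLE, 0.058 with upper quartile, 0.015 with the stricter filter and 0.0046 with DESeq2 on edgeR's genes. Leaving out 1 library at a time gave Klc1 -0.23 to 0.031, Klc2 -0.28 to 0.69, Kif2a -0.11 to 0.19, Dync1i2 -0.067 to 0.14, Dync1li1 -0.21 to 0.17, Dynll1 -0.10 to 0.23, Dctn1 -0.36 to 0.13, Dctn2 -0.11 to 0.12, Dctn5 -0.063 to 0.33 and Dctn6 -0.41 to 0.029. The cause was not tested.

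No paired analysis was possible because replicate numbers follow record order and the animal numbers in the labels are each used once. By length of the longest coding transcript, Kif1b held 65.3% of kinesin-3 and Dync1i1 72.3% of intermediate chains; with no length they held 70.5% and 72.9%. With 5 animals a group, genes of a few counts cannot be compared at this depth.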
